A study of Mus musculus with 9 samples.

Results

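Granulosa cells hold a small set of regulators that define and maintain their identity, and they also make the hormone AMH and its receptor. The transcripts of 9 genes from both groups were followed through the first 6 h of induced ovulation. They are the nuclear receptor genes *Nr5a1* and *Nr5a2*, the forkhead genes *Foxl2* and *Foxo1*, the zinc finger genes *Gata4*, *Gata6* and *Wt1*, the hormone gene *Amh* and its receptor gene *Amhr2*. They were chosen by symbol, and all 9 were found among the 25059 gene identifiers of the deposited tables. The cells came from ovaries of Kunming mice at postnatal day 21 that had received 5 IU of PMSG, a serum gonadotropin that drives follicle growth. The 1 h and 6 h groups were also given 5 IU of hCG, a ligand of the LH receptor used to induce ovulation, 48 h after PMSG. The 0 h group was taken 48 h after PMSG without hCG. Each time had 3 libraries, 9 in all, and every group carried the PMSG treatment. Whether the 3 libraries of a time stand for different animals, or for pools, is not labelled, so the spread that p-values rest on may be technical. Hours after hCG and time of day cannot be told apart in these groups.

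As background, NR5A1 and NR5A2 are related orphan nuclear receptors that bind the same short DNA element and activate genes of steroid synthesis. In the mouse, NR5A2 in granulosa cells is required for ovulation. FOXL2 keeps adult granulosa cells from taking on features of their testicular counterpart, the Sertoli cell. GATA4 and GATA6 act together in granulosa cells, and WT1 is high in granulosa cells of young follicles. FOXO1 is active when insulin and gonadotropin signalling through AKT is low, and restrains growth and cholesterol synthesis. AMH is made by granulosa cells of growing follicles, limits the recruitment of further follicles, and signals through AMHR2 together with BMP type 1 receptors and SMAD proteins.

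Promoter windows from RefSeq (GRCm38.p6) were used for 4 of the 9 genes, 5 windows in all. Each had 250 bases before the transcript start and 50 from it on. Windows of the other genes were not searched, so they can hold any of the motifs below. Promoter sequence is shown for *Nr5a2*, which had the widest swing of the 9 genes, at both of its RefSeq starts. It is also shown for *Amhr2*, the only one of these 4 genes whose window held the core of the NR5A element. The windows are written 5′ to 3′ on the gene's own strand. Capitals mark the GATA motif, read here as its reverse complement TTATCT, in *Nr5a2*, and the NR5A core AAGGTCA in *Amhr2*. The first *Nr5a2* window is chr1:136960399-136960698 on the minus strand (GRCm38.p6), with the start at 136960448, and the second is chr1:136953581-136953880, with the start at 136953630. The *Amhr2* window is chr15:102445117-102445416 on the plus strand, with the start at 102445367.

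*Nr5a2*, upstream start: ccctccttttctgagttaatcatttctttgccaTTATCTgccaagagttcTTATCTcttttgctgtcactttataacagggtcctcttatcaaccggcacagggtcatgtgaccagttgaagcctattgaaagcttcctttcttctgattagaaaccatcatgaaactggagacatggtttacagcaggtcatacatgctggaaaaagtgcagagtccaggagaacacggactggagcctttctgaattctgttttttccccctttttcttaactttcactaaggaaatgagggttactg

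*Nr5a2*, downstream start: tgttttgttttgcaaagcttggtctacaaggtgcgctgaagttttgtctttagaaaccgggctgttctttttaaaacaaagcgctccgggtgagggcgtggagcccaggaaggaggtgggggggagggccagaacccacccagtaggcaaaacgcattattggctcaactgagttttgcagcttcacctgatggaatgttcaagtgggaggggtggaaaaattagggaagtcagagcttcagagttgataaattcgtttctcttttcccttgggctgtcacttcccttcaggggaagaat

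*Amhr2*: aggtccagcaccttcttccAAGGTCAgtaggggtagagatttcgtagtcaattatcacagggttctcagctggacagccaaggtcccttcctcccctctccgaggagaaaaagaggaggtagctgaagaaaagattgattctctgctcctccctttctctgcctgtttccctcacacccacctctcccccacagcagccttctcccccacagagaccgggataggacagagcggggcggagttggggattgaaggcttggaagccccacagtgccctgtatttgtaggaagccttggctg

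Both strands were searched for the NR5A core AAGGTCA, the GATA motif AGATAA, the forkhead motif GTAAACA and the cAMP-response half-site TGACG. The NR5A core was matched once in *Amhr2*, with its first base at −231 from the start, and the GATA motif was matched at −217 and −200 from the upstream *Nr5a2* start. No match overlapped another. Neither *Foxl2*, *Foxo1* nor the downstream *Nr5a2* window held any of the 4 motifs in these exact letters. The *Foxl2* window (chr9:98955357-98955656, start at 98955607) lies inside the GENCODE M21 span of the gene, which begins at 98955288. Bases before that GENCODE start were not searched. Variants of a motif were not searched, so a window without a match can still hold one. Of 32851 promoter windows of this length, 4.72% held the NR5A core, 11.2% the GATA motif, 3.65% the forkhead motif and 20.8% the half-site. A match is a run of letters and not a shown binding site.

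Values are FPKM, which counts fragments relative to transcript length and to all mapped fragments of a library, so that levels of different genes can be set side by side. The read depth behind them is unknown. Means are given ± SD over the 3 libraries of a time, and log2 changes ± SE. The FPKM of a gene was summed over its rows, and changes are differences in log2(FPKM + 1) from limma, fitted over 14535 genes that reached 1 FPKM in 3 or more of the libraries. All 9 genes passed that filter. The threshold for a call was 0.05 on the p adjusted by Benjamini-Hochberg over all of these genes. Between 13587 and 13862 genes reached 1 FPKM in a library. The summed FPKM was 491920 to 495500 at 0 h, 527034 to 570986 at 1 h and 513434 to 539279 at 6 h. Scaling each library to the mean sum moved the median change of all genes at 1 h against 0 h to −0.14, against −0.0046 as deposited. It turned the split of calls between these times to 1002 higher and 2634 lower, against 1407 and 869 as deposited, and at 6 h against 1 h to 4420 and 3396, against 3879 and 3904.

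The cells carried granulosa markers at high levels. *Fshr*, the FSH receptor gene, averaged 93.0 ± 7.06 FPKM at 0 h, 82.6 ± 13.5 at 1 h and 20.2 ± 0.861 at 6 h. The granulosa marker list held 12 genes, 4 of which (*Nr5a2*, *Foxl2*, *Amh* and *Amhr2*) are among the 9 genes described here. The other 8 summed to 12515 to 13279 FPKM at 0 h, 12191 to 17690 at 1 h and 4559 to 4883 at 6 h, and 8 of these 8 were called lower at 6 h than at 0 h. Markers of other cells were present too. The 12 theca and stroma markers summed to 207 to 302 FPKM at 0 h, 265 to 403 at 1 h and 118 to 141 at 6 h, and among them the androgen synthesis gene *Cyp17a1* averaged 123 ± 32.3, 193 ± 70.5 and 21.9 ± 5.04 FPKM. The 9 oocyte markers summed to 41.2 to 65.3 FPKM at 0 h, 54.3 to 65.0 at 1 h and 74.0 to 110 at 6 h, and 8 of the 8 tested were called higher at 6 h than at 0 h. The egg coat gene *Zp3* averaged 14.4 ± 3.05 FPKM at 6 h and 7.79 ± 1.28 at 0 h. Summed surface epithelium markers (8 genes, *Upk3b* at 2.81 to 4.49 as group means) lay between 19.9 and 31.6 FPKM, and summed endothelial markers (6 genes, *Pecam1* at 3.30 to 4.13 as group means) between 16.3 and 30.0. Summed leukocyte markers (7 genes) lay between 9.34 and 18.3 FPKM, with *Ptprc* below 1.3 in every library, and summed erythroid markers (5 genes) between 69.5 and 204. Between 6 h and 0 h, 0 theca and stroma markers were called higher and 5 lower of 11 tested, 0 and 2 of 6 surface epithelium markers, 2 and 0 of 6 endothelial, 0 and 1 of 3 leukocyte, and 0 and 2 of 4 erythroid. Over all tested genes, 28.8% were called higher and 27.9% lower at 6 h against 0 h. None of the markers was at 0 in all libraries. In bulk samples, fewer cells of a type and less RNA per cell cannot be told apart, and the part of these other cells in the changes below was not tested.

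At 0 h, *Nr5a2* had the highest level of the 9 genes, at 412 ± 36.3 FPKM, and *Foxo1* followed at 122 ± 14. *Foxl2* (90.2 ± 5.75), *Gata4* (85.3 ± 10.7), *Nr5a1* (78.4 ± 6.44) and *Amh* (74.9 ± 8.20) came next, each overlapping its neighbour in this order between libraries. *Amhr2* (55.7 ± 1.24) and *Gata6* (54.3 ± 3.69) overlapped as well, and *Wt1* was lowest at 11.1 ± 2.21. By 6 h the order had changed. *Nr5a2* was still highest at 162 ± 17.3 FPKM, but *Nr5a1* (66.4 ± 6.08) and *Gata6* (54.0 ± 2.15) now stood next, and *Foxo1* (32.9 ± 6.18) and *Foxl2* (36.9 ± 13.2) had dropped to seventh and sixth place. From *Gata6* down to *Wt1* (17.5 ± 0.879), each gene's libraries at 6 h overlapped those of the gene below it.

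**Figure D1:**
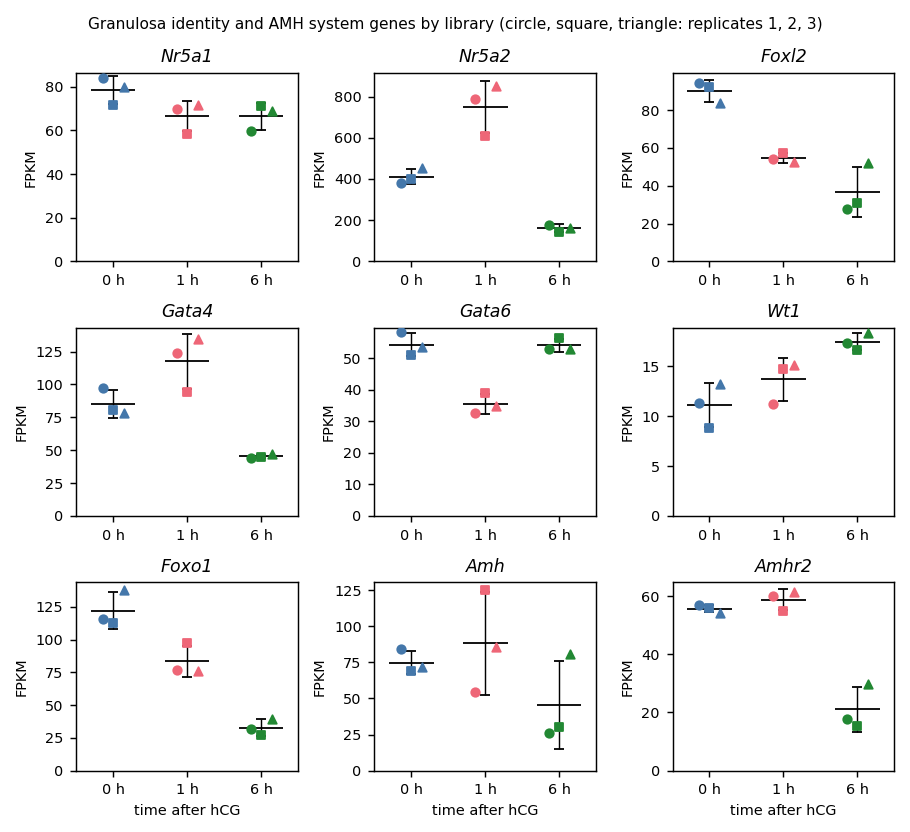
FPKM of the 9 genes in each library at 0, 1 and 6 h after hCG, with the mean and SD of 3 libraries as a line and bar, and symbols for replicates 1, 2 and 3. *Nr5a2* and *Gata4* peak at 1 h, *Foxl2* and *Foxo1* step down at both times, *Gata6* dips at 1 h only, and the 6 h triangle (replicate 3) is the highest of its group for *Amh*, *Amhr2*, *Foxl2* and *Foxo1*.

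One hour after hCG the set split: *Nr5a2* and *Gata4* were called higher, *Foxl2*, *Gata6* and *Foxo1* lower, and 4 genes were not called. The calls of *Nr5a2* and *Gata6* held in all 17 alternative settings given below. Those of *Gata4*, *Foxl2* and *Foxo1* held in 4, 11 and 12 of the 17. The 2 higher calls among 9 stand beside 9.68% of all tested genes called higher, and the 3 lower calls beside 5.98% called lower. The median log2 change of the 9 genes was 0.08. At 6 h against 0 h, 1 gene (*Wt1*) was higher and 5 were lower (*Nr5a2*, *Foxl2*, *Gata4*, *Foxo1* and *Amhr2*), with a median of −0.89, where 28.8% of all tested genes were called higher and 27.9% lower. At 6 h against 1 h, 1 gene (*Gata6*) was higher and 6 were lower (the same 5 and *Amh*), with a median of −1.04, beside 26.7% called higher and 26.9% lower in all. The median change of all tested genes was −0.0041 and −0.00075 in these comparisons. The comparisons with 0 h share the 0 h libraries, and those with 1 h or 6 h share theirs.

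**Figure D2:**
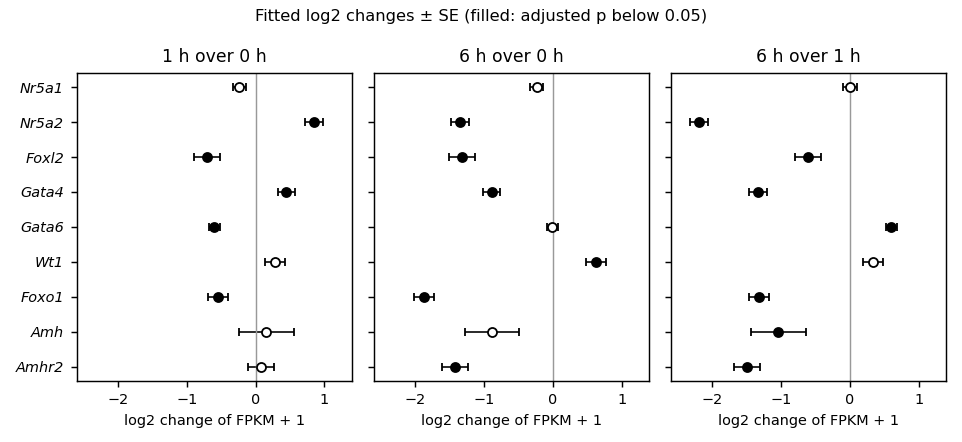
Fitted log2 changes of FPKM + 1 with their SE for the 9 genes in the 3 comparisons, where filled points have an adjusted p below 0.05. *Nr5a2* spans 0.85 at 1 h over 0 h to −2.19 at 6 h over 1 h, while *Nr5a1* stays within −0.24 to 0.

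*Nr5a2* nearly doubled in the first hour and then fell below its starting level. Its libraries read 382, 402 and 452 FPKM at 0 h, 789, 606 and 852 at 1 h, and 179, 144 and 162 at 6 h. The 3 times did not overlap. The mean at 1 h was 1.82 times that at 0 h (log2 change 0.85 ± 0.13 SE, limma adjusted p = 0.00242), and the mean at 6 h was 39.3% of that at 0 h (−1.34 ± 0.13, adjusted p = 2.09e-05). Between 6 h and 1 h the log2 change was −2.19 ± 0.13 (adjusted p = 1.11e-06). The gene (ENSMUSG00000026398) lies on chromosome 1, 136842571 to 136960448, minus strand, in GENCODE M21 (mm10).

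*Nr5a1*, its paralog, was not called at any time. Its libraries read 84.1, 71.4 and 79.6 FPKM at 0 h, 69.7, 58.5 and 71.4 at 1 h, and 59.5, 70.9 and 68.8 at 6 h. The 1 h and 6 h libraries lay below those of 0 h, at 1 h only just (71.38 FPKM in its highest library, against 71.40 in the lowest of 0 h), and overlapped each other. The log2 change was −0.24 ± 0.10 at 1 h (adjusted p = 0.144) and −0.24 ± 0.10 at 6 h (adjusted p = 0.068) against 0 h, neither past the threshold. With FPKM scaled to the mean sum both were called lower (−0.39, adjusted p = 0.00910, and −0.33, adjusted p = 0.00599), as they were under quantile normalization (adjusted p = 0.00518 and 0.00194). The 6 h value was also called from the most abundant row (adjusted p = 0.0387) and without 0 h replicate 2 (0.0448) or 1 h replicate 2 (0.0390). *Nr5a1* (ENSMUSG00000026751) lies on chromosome 2, 38692656 to 38714542, minus strand.

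The balance of both receptor genes was followed as an FPKM ratio within each library, which a single scaling factor per library leaves the same. *Nr5a1* stood at 0.191 ± 0.0251 of the *Nr5a2* level at 0 h, 0.0895 ± 0.00642 at 1 h and 0.416 ± 0.0798 at 6 h. The log2 ratio of FPKM + 1 was −2.17, −2.48 and −2.49 in the 0 h libraries, −3.48, −3.35 and −3.56 at 1 h, and −1.57, −1.01 and −1.23 at 6 h. An exact permutation test of the 3 times over the 9 libraries gave p = 0.00357, the smallest it can give, and 0.00536 adjusted over the 3 ratios tested. Each pair of times was fully separated, with an exact permutation p of 0.1, the smallest that 3 libraries against 3 allow.

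Rows of the tables stand for transcripts but carry no transcript name, and the 9 genes had 25 rows. *Nr5a2* had 5. Its 2 main rows carried 48.2% and 47.9% of the gene at 0 h. The row ranked 3 averaged 77.3 ± 28.8 FPKM at 1 h and 11.7 ± 4.48 at 0 h, a log2 change of 2.63 ± 0.33 in a fit over all 24544 rows that passed the filter (limma adjusted p = 0.00197). Its libraries read 7.0, 12.1 and 15.9 FPKM at 0 h, 73.2, 50.8 and 108 at 1 h, and 3.06, 4.47 and 2.79 at 6 h. That row made up 2.79% ± 0.867 of *Nr5a2* at 0 h, 10.1% ± 2.27 at 1 h and 2.17% ± 0.798 at 6 h. The main rows changed by 0.85 ± 0.16 and 0.60 ± 0.14 at 1 h (adjusted p = 0.0147 and 0.0413), and the fourth by 0.78 ± 0.19 (0.0474). The difference in change between rows was not tested. All 4 were called lower at 6 h than at 0 h. The fifth row stayed below 0.001 FPKM in all libraries. Over all rows, 5.61% were called higher and 1.68% lower at 1 h against 0 h, 20.2% and 18.2% at 6 h against 0 h, and 17.7% and 18.1% at 6 h against 1 h.

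*Gata4* and *Gata6* moved in opposite directions at 1 h. *Gata4* read 97.6, 80.3 and 78.1 FPKM at 0 h, 124, 94.2 and 134 at 1 h, and 44.3, 45.1 and 46.8 at 6 h. The 1 h libraries overlapped those at 0 h through replicate 2 at 1 h, while all 6 h libraries lay below both. The log2 change at 1 h against 0 h was 0.45 ± 0.13 (limma adjusted p = 0.0419). That call ended in 13 of 17 alternatives, among them FPKM scaled to the mean sum (0.29, adjusted p = 0.0808), quantile normalization (0.22, 0.176) and no filter (0.0719). It also ended when any 6 h library, 0 h replicate 2 or 3, or 1 h replicate 1 or 3 was left out (adjusted p = 0.0554 to 0.139). At 6 h *Gata4* was at 53.2% of its 0 h mean (−0.89 ± 0.13, adjusted p = 0.000251), a call that held in all 17. It lies on chromosome 14, 63198922 to 63271692, minus strand (ENSMUSG00000021944).

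Of 6 *Gata4* rows, the leading pair averaged 42.5 ± 1.29 and 31.8 ± 7.58 FPKM at 0 h. At 1 h they averaged 58.9 ± 13.4 and 44.4 ± 4.88, with adjusted p of 0.186 and 0.102 against 0 h in the limma fit over rows, and at 6 h 20.6 ± 3.76 and 18.0 ± 1.54, both called lower (0.00194 and 0.00434). A minor row averaged 1.19 ± 0.312 FPKM at 0 h and stayed below 0.001 in all 1 h and 6 h libraries.

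**Figure D3:**
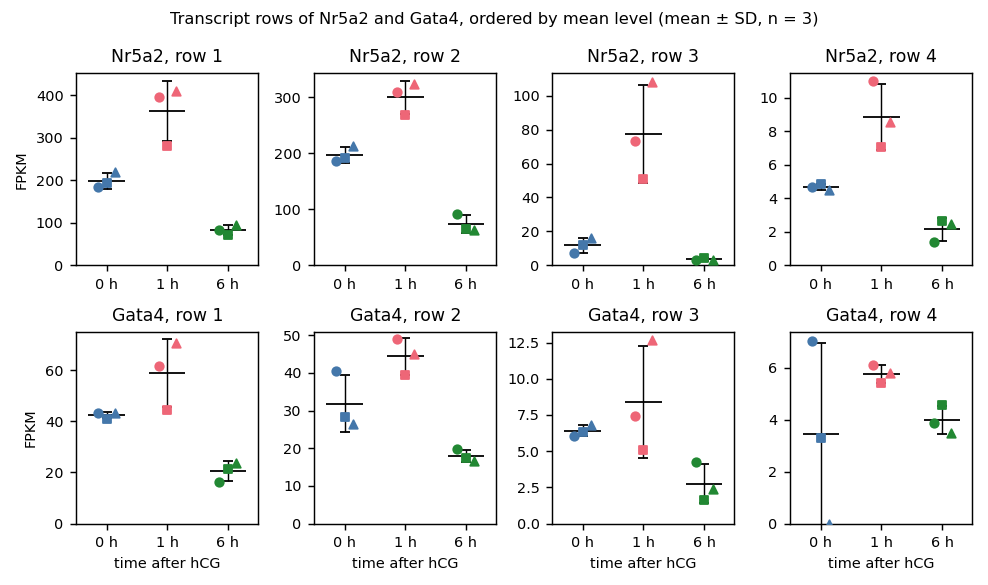
FPKM of the 4 most abundant table rows of *Nr5a2* (top) and *Gata4* (bottom) in each library at 0, 1 and 6 h, with the mean and SD of 3 libraries. The third *Nr5a2* row averages 77.3 FPKM at 1 h against 11.7 at 0 h, and the fourth *Gata4* row reads below 0.001 in 1 library of 0 h.

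*Gata6* did the reverse at 1 h and had returned by 6 h. Its libraries read 58.3, 51.0 and 53.6 FPKM at 0 h, 32.6, 38.9 and 34.8 at 1 h, and 52.8, 56.5 and 52.8 at 6 h. All 3 libraries at 1 h lay below all others, and the 6 h and 0 h libraries overlapped. The mean at 1 h was 65.2% of that at 0 h (−0.60 ± 0.08, limma adjusted p = 0.000863). Relative to 1 h, the 6 h value was 0.60 ± 0.08 higher (adjusted p = 0.000183), and against 0 h the change was −0.01 ± 0.08 (adjusted p = 0.958). Both calls held in all 17 alternatives. *Gata6* had 1 row, for the gene ENSMUSG00000005836 on chromosome 18, 11052064 to 11085635, plus strand.

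As a ratio, *Gata4* stood at 1.57 ± 0.108 times *Gata6* at 0 h, 3.36 ± 0.819 times at 1 h and 0.841 ± 0.0445 times at 6 h. The log2 ratios were 0.73, 0.64 and 0.54 at 0 h, 1.90, 1.25 and 1.92 at 1 h, and −0.25, −0.32 and −0.17 at 6 h. The 3 times did not overlap, and *Gata6* was the more abundant of the pair at 6 h only. The exact permutation p over the 3 times was 0.00357 (0.00536 adjusted over 3 ratios), again the smallest possible.

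**Figure D4:**
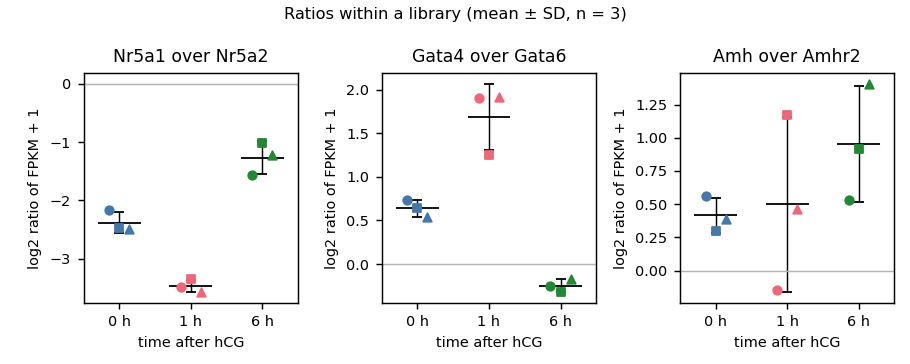
Log2 ratios of FPKM + 1 within each library for *Nr5a1* over *Nr5a2*, *Gata4* over *Gata6* and *Amh* over *Amhr2*, with the mean and SD of 3 libraries per time. The first 2 ratios separate all 3 times, and *Amh* over *Amhr2* overlaps between times, with 1 h libraries from −0.14 to 1.17.

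*Foxl2* was lower at each later time. It read 94.5, 92.4 and 83.7 FPKM at 0 h, 54.3, 57.6 and 52.5 at 1 h, and 27.9, 30.8 and 52.0 at 6 h. The groups did not overlap, although 6 h replicate 3 lay close to the 1 h libraries. The log2 change at 1 h against 0 h was −0.71 ± 0.19 (limma adjusted p = 0.0306), and this call ended without filtering (0.0592) and on leaving out any 0 h library or 1 h replicate 1 or 3 (0.0617 to 0.0968). At 6 h the gene was at 40.9% of its 0 h mean (−1.32 ± 0.19, adjusted p = 0.000222), which held in all 17 alternatives. Against 1 h the change was −0.61 ± 0.19 (adjusted p = 0.0193), not called without 1 h replicate 2 (0.0538) or 6 h replicate 1 or 2 (0.0695 and 0.0741). *Foxl2* (ENSMUSG00000050397) is on chromosome 9, 98955288 to 98958543, plus strand.

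*Foxo1* had the deepest fall from 0 h. Its libraries read 116, 112 and 138 FPKM at 0 h, 76.9, 97.3 and 75.9 at 1 h, and 31.4, 27.5 and 39.6 at 6 h, with no overlap between times. The 6 h mean was 26.9% of that at 0 h (−1.87 ± 0.14, limma adjusted p = 3.93e-06) and 39.4% of that at 1 h (−1.32 ± 0.14, adjusted p = 4.55e-05). At 1 h against 0 h the change was −0.55 ± 0.14 (adjusted p = 0.0293), a call lost without filtering (0.0548) and on leaving out replicate 1 or 3 of either time (0.0620 to 0.104). *Foxo1* (ENSMUSG00000044167) is on chromosome 3, 52268336 to 52353221, plus strand. Of its paralogs, *Foxo3* rose at 1 h (36.4 ± 4.24 against 21.4 ± 1.97 FPKM at 0 h, log2 change 0.74, adjusted p = 0.000833) and was higher than at 0 h at 6 h too (32.5 ± 1.20 FPKM, 0.58, adjusted p = 0.000621). Of 8 paralogs of the GATA and forkhead members, 3 passed the filter, and *Foxo3* was the 1 called. Of all tested genes, 9.68% were called higher at 1 h and 28.8% at 6 h against 0 h. *Foxo4* (6.75 ± 0.610 FPKM at 0 h) and *Foxo6* were tested and not called, and *Gata1*, *Gata2*, *Gata3*, *Gata5* and *Foxl1* did not pass the filter.

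Several of these loci also carry a transcript on the opposite strand, and strandedness of the libraries is not stated, so reads of a gene and its partner could be shared. *Foxl2os*, which overlaps the first 12 bases of *Foxl2*, averaged 84.8 ± 9.61 FPKM at 0 h, 63.3 ± 3.43 at 1 h and 24.8 ± 4.60 at 6 h. Against 0 h it changed by −0.41 ± 0.12 at 1 h (limma adjusted p = 0.04998) and by −1.74 ± 0.12 at 6 h (adjusted p = 2.37e-06). *Gm20402* lies opposite *Foxo1* near its start, and all of its 1001 bases lie within *Foxo1*. It averaged 213 ± 17.7, 125 ± 32.5 and 61.0 ± 19.1 FPKM at 0, 1 and 6 h, above the values of *Foxo1*. Any read of this stretch could be of either gene, so the level and changes of *Gm20402* are not separate from those of *Foxo1*. *Gm20402* was called lower at 1 h (−0.79 ± 0.22, adjusted p = 0.0387) and at 6 h (−1.82 ± 0.22, adjusted p = 7.99e-05) against 0 h. *Gm38034*, on the same strand within *Foxo1*, averaged 116 ± 27.7, 61.2 ± 16.5 and 27.0 ± 6.74 FPKM. *1010001N08Rik*, which overlaps *Gata6* over 504 bases, averaged 35.2 ± 2.56, 19.8 ± 2.81 and 25.6 ± 0.744 FPKM at the 3 times. It dipped at 1 h like *Gata6* (−0.81 ± 0.10, adjusted p = 0.000526) but was still lower at 6 h than at 0 h (−0.44 ± 0.10, adjusted p = 0.00350). *Nr5a1os* and *Wt1os* stayed below 1.7 FPKM in every library. The list of 9 antisense or neighbouring genes does not hold *Gm20402*, *Gm38034* or *1010001N08Rik*, which were added after their values were seen. Of that list 4 were tested. Against 0 h, 0 were higher and 1 lower (*Foxl2os*) at 1 h, beside 9.68% and 5.98% of all tested genes. At 6 h 0 were higher and 2 lower, beside 28.8% and 27.9%. The second gene lower at 6 h was *Jsrp1* (2.12 ± 0.546 against 5.04 ± 0.440 FPKM at 0 h, −0.97 ± 0.15), and *Nr6a1* (3.11 ± 0.475 FPKM at 0 h) was not called. How far shared reads set these parallel values was not tested.

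**Figure D5:**
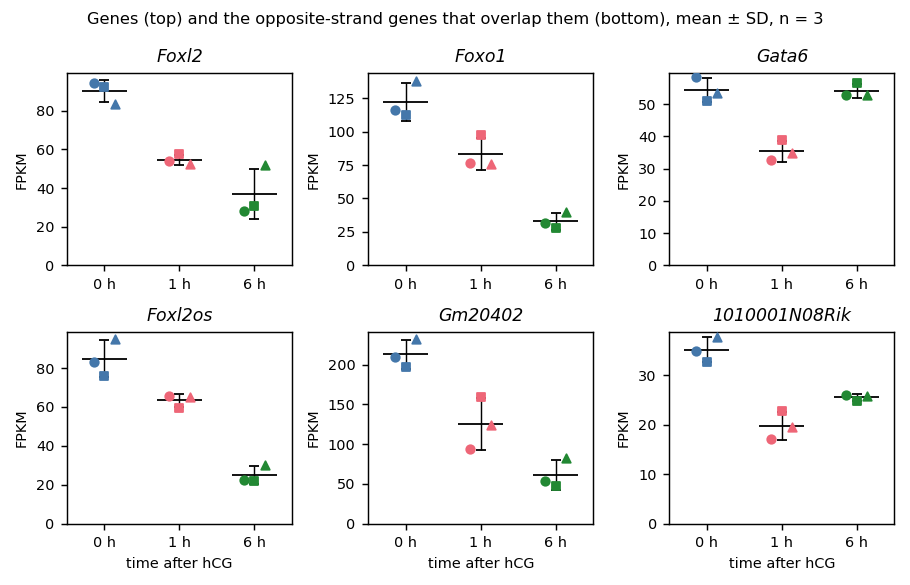
FPKM of *Foxl2*, *Foxo1* and *Gata6* (top) and of *Foxl2os*, *Gm20402* and *1010001N08Rik* (bottom), which overlap them on the opposite strand, by library at 0, 1 and 6 h with the mean and SD of 3 libraries. Each partner is lower at 1 h than at 0 h, as its gene is, and at 6 h *Foxl2os* averages 24.8 FPKM against 84.8 at 0 h.

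*Wt1* was the only one of the 9 genes called higher at 6 h than at 0 h. It read 11.3, 8.80 and 13.2 FPKM at 0 h, 11.3, 14.7 and 15.1 at 1 h, and 17.4, 16.6 and 18.4 at 6 h. The 6 h libraries lay above all others, and those at 1 h overlapped those at 0 h. The log2 change was 0.62 ± 0.14 at 6 h against 0 h (limma adjusted p = 0.00450), called in all 17 alternatives, 0.29 ± 0.14 at 1 h against 0 h (0.218) and 0.34 ± 0.14 at 6 h against 1 h (0.0741). The last was called with FPKM scaled to the mean sum (0.40, adjusted p = 0.0453), in a fit of these times alone (0.0427) and without 0 h replicate 2 (0.0390). The leading of its 6 rows averaged 10.3 ± 0.931 FPKM at 6 h and 5.86 ± 0.684 at 0 h (0.72 ± 0.16, adjusted p = 0.00668). WT1 is also made by the ovarian surface epithelium, whose markers summed to 19.9 to 25.3 FPKM at 6 h and 25.8 to 31.6 at 0 h. The means of single markers in that sum went both ways, and the part of these cells in the *Wt1* values was not tested. *Wt1* (ENSMUSG00000016458) is on chromosome 2, 105126529 to 105173616, plus strand.

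In the AMH system the receptor fell at 6 h, while calls of the hormone gene turned on single libraries. *Amhr2* read 56.8, 55.9 and 54.4 FPKM at 0 h, 60.1, 54.9 and 61.5 at 1 h, and 17.8, 15.4 and 29.9 at 6 h. The 1 h libraries overlapped those at 0 h, and all 6 h libraries lay below. The 6 h mean was 37.8% of that at 0 h (−1.42 ± 0.19, limma adjusted p = 0.000148) and 35.8% of that at 1 h (−1.49 ± 0.19, adjusted p = 0.000126), and both calls held in all 17 alternatives. At 1 h against 0 h the change was 0.08 ± 0.19 (adjusted p = 0.832), with the sign turned under the other scalings. *Amhr2* (ENSMUSG00000023047) lies on chromosome 15, 102445367 to 102454633, plus strand.

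*Amh* read 84.3, 69.0 and 71.5 FPKM at 0 h, 54.2, 125 and 85.4 at 1 h, and 26.3, 29.9 and 81.0 at 6 h. Replicate 2 was high at 1 h, replicate 3 was high at 6 h, and all groups overlapped. At 6 h against 0 h the log2 change of −0.88 ± 0.40 did not pass (limma adjusted p = 0.0840), but without 6 h replicate 3 it was −1.38 (adjusted p = 0.00314). The change from the 1 h libraries, −1.04 ± 0.40, passed narrowly (adjusted p = 0.0493) and ended in 14 of 17 alternatives, with adjusted p from 0.0507 to 0.166. At 1 h against 0 h it was 0.16 ± 0.40 (adjusted p = 0.837), and it turned to −0.13 without 1 h replicate 2. In 6 h replicate 3, *Amhr2*, *Foxl2* and *Foxo1* were also at their highest within the group, as were *Gata4* and *Wt1* by narrower margins. There the oocyte markers summed to 110 FPKM, against 74.0 and 90.2 in replicates 1 and 2, and the theca and stroma markers to 118, against 134 and 141. The part of these cells in the spread was not tested. *Amh* (ENSMUSG00000035262) is on chromosome 10, 80805243 to 80807648, plus strand, 318 bases downstream of *Sf3a2*, which averaged 27.5 ± 1.78, 26.1 ± 1.54 and 32.1 ± 4.90 FPKM and was not called at any time.

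Relative to *Amhr2*, the level of *Amh* averaged 1.35 ± 0.127 at 0 h, 1.52 ± 0.697 at 1 h and 2.04 ± 0.622 at 6 h. The log2 ratios overlapped between times, and the exact permutation p over the 3 times was 0.429. A change in this ratio was not detected with 3 libraries per time, which does not show that the ratio stayed the same.

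The gene lists that follow are read beside the shares of all tested genes called higher and lower, 9.68% and 5.98% at 1 h against 0 h, 28.8% and 27.9% at 6 h against 0 h, and 26.7% and 26.9% at 6 h against 1 h. A list's count near these shares is not a result about that list. The genes that carry the AMH and BMP signal downstream were all measured and tested, 14 in all. At 1 h 4 were higher and 1 lower than at 0 h (median log2 change 0.16), at 6 h 7 were higher and 3 lower (median 0.23), and against 1 h 5 were higher and 3 lower (0.21). The type 2 receptor gene *Bmpr2* averaged 112 ± 13.8 FPKM at 6 h and 285 ± 26.4 at 0 h (−1.34 ± 0.10, limma adjusted p = 4.15e-06). The type 1 receptor gene *Bmpr1b* fell to 27.8 ± 1.65 FPKM at 6 h, against 85.1 ± 15.1 at 0 h (−1.56 ± 0.11), while the other type 1 receptor genes *Acvr1* (0.74 ± 0.11) and *Bmpr1a* (0.37 ± 0.07) rose. These last 2 were chosen for their role and not by size. Among the ID genes, which encode dimerization inhibitors of helix-loop-helix factors and respond to BMP signals, *Id3* was higher at 1 h and lower at 6 h than at 0 h, as *Nr5a2* was. It averaged 106 ± 3.93 FPKM at 0 h, 187 ± 30.5 at 1 h (0.79 ± 0.10) and 47.4 ± 0.619 at 6 h (−1.15 ± 0.10). *Id1* dipped at 1 h (24.6 ± 5.95 against 41.8 ± 1.43 FPKM at 0 h, −0.77 ± 0.14). *Id2* went the other way from *Id3* at 6 h, at 82.5 ± 11.9 against 38.7 ± 13.0 FPKM at 0 h (1.11 ± 0.22, limma adjusted p = 0.00166). *Id4*, at 0.339 ± 0.115 FPKM at 0 h, and *Smad1*, at 13.5 ± 1.52, were higher at both later times (1.15 and 0.76 at 6 h against 0 h).

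Of 14 genes known as targets of NR5A1, NR5A2, GATA4 or GATA6 in steroidogenic cells, a list that includes *Amh* and *Amhr2*, 5 were higher and 0 lower at 1 h against 0 h (median log2 change 0.23, against −0.0046 over all genes). An unadjusted p below 0.05 was reached by 0 lower and 7 higher in that comparison. At 6 h against 0 h 7 were higher and 5 lower (median 0.33), and against 1 h 4 were higher and 7 lower (−0.38). The aromatase gene *Cyp19a1*, which makes estradiol, averaged 191 ± 8.0 FPKM at 0 h, 1074 ± 372 at 1 h and 20.5 ± 2.46 at 6 h, highest at 1 h as *Nr5a2* was. *Star*, which delivers cholesterol to the mitochondrion, instead was higher at each later time, at 96.4 ± 10.5, 308 ± 37.4 and 606 ± 86.0 FPKM. *Fdx1*, an electron carrier of side-chain cleavage, averaged 1015 ± 156 FPKM at 1 h and 263 ± 71.7 at 0 h (1.97 ± 0.21). The estradiol-forming *Hsd17b1* fell at 6 h (78.8 ± 7.21 against 383 ± 13.0 FPKM at 0 h). The estrogen sulfotransferase gene *Sult1e1* averaged 833 ± 127 FPKM at 6 h, while at 0 h its libraries were listed at 0, 0.0567 and 0.

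Counts for partners and corepressors of the NR5A and GATA proteins lay near the shares of all genes at 6 h against 0 h. Of 14 such genes 13 were tested, with 3 higher and 1 lower at 1 h against 0 h (median 0.02), 4 and 4 at 6 h against 0 h (0.16, beside 28.8% and 27.9% of all genes), and 3 and 2 at 6 h against 1 h (0.02). *Zfpm1*, whose product FOG1 is a cofactor of GATA factors, averaged 15.2 ± 1.30 FPKM at 6 h and 5.43 ± 0.107 at 0 h (1.33 ± 0.13, limma adjusted p = 1.61e-05). The corepressor gene *Nrip1* was higher at 1 h (91.0 ± 9.93 against 72.1 ± 4.56 FPKM at 0 h, 0.33 ± 0.09) and lower at 6 h (29.8 ± 2.20 FPKM, −1.25 ± 0.09). *Nr0b2*, which encodes SHP, a repressor of NR5A2 in liver, was lower at 1 h (1.30 ± 0.215 against 2.67 ± 0.483 FPKM at 0 h, −0.67 ± 0.14) and at 6 h (−0.70 ± 0.14). *Hipk3*, at 50.5 ± 1.5 FPKM at 1 h and 38.5 ± 3.74 at 0 h, and *Ctbp2* rose at 1 h by 0.39 and 0.31. At 6 h against 1 h, the CREB coactivator gene *Crtc2* (16.8 ± 2.19 against 12.5 ± 0.236 FPKM, 0.40 ± 0.09) and the helicase gene *Ddx20* (10.4 ± 0.644 against 8.43 ± 1.09 FPKM, 0.28 ± 0.10) were higher. *Nr0b1* (DAX1, another repressor) averaged 0.545 ± 0.160 FPKM at 6 h and 1.62 ± 0.782 at 0 h (−0.73 ± 0.22).

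Of the known targets of FOXO proteins, *Ccng2* had the largest called change at 1 h against 0 h (2.28 ± 0.17), and the list's counts at 6 h against 0 h lay near the shares of all genes. Of 13 genes, all tested, 6 were higher and 0 lower at 1 h against 0 h (median log2 change 0.13, with 3 lower at an unadjusted p below 0.05), 3 were higher and 4 lower at 6 h against 0 h (−0.12, beside 28.8% and 27.9% of all genes), and 2 and 6 at 6 h against 1 h (0.08). The cell cycle inhibitor gene *Ccng2* averaged 32.9 ± 3.03 FPKM at 0 h, 167 ± 40.4 at 1 h and 30.4 ± 3.52 at 6 h. *Irs2*, an adaptor of the insulin receptor, likewise was higher at 1 h (12.3 ± 2.55 FPKM) than at 0 h (6.88 ± 1.46). *Trib1* (2.76 ± 0.331, 6.73 ± 0.641 and 17.9 ± 2.74 FPKM at 0, 1 and 6 h), *Bcl6* and *Klf9* were higher at both later times. The cyclin gene *Ccnd2* fell at 6 h (34.6 ± 9.49 against 106 ± 8.74 FPKM at 0 h, −1.62 ± 0.18), as did *Fbxo32* (2.35 ± 0.0561 against 4.47 ± 0.429 FPKM).

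Other regulators of ovarian identity and steroid synthesis were a list of 17, of which 14 were tested. There 2 were higher and 2 lower at 1 h against 0 h (median 0.07), 3 and 6 at 6 h against 0 h (−0.17), and 2 and 6 at 6 h against 1 h (−0.22). Both estrogen receptor genes were lower at 6 h than at 0 h, *Esr2* at 24.6 ± 3.87 against 82.3 ± 19.3 FPKM (−1.69 ± 0.19) and *Esr1* at 3.42 ± 0.555 against 9.09 ± 0.757 (−1.19 ± 0.12). *Fst*, which encodes the activin-binding protein follistatin, rose at 1 h (661 ± 122 against 464 ± 35.9 FPKM at 0 h, 0.49 ± 0.12) and was lower at 6 h (192 ± 4.93 FPKM). *Runx1*, a factor of fetal granulosa identity, averaged 368 ± 22.3 FPKM at 6 h and 17.2 ± 3.81 at 0 h (4.36 ± 0.16). *Cbx2*, a polycomb gene, dipped at 1 h (5.83 ± 1.22 against 9.91 ± 1.69 FPKM at 0 h, −0.68 ± 0.16) and averaged 10.1 ± 1.29 at 6 h. The kinase gene *Map3k1* was higher at 1 h than at 0 h (25.6 ± 3.14 against 14.6 ± 1.80 FPKM).

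Genes with the most similar course were ranked by the root mean square difference between log2(FPKM + 1) profiles over the 9 libraries, each centred on its own mean, among 9163 other genes averaging 5 FPKM or more. Nearest to *Nr5a2*, whose own profile spread by 0.92, were *Fmn1* (difference 0.08) and *Fat1* (0.11). *Foxo1* (spread 0.80) was nearest to *Rgs3* (0.11) and *Irs1* (0.13), *Amhr2* (0.72) to *Eya2* (0.08) and *Synpo* (0.13), and *Gata4* (0.58) to *Wapl* (0.11) and *As3mt* (0.11). *Foxl2* (0.59) was nearest to *Susd4* (0.15) and *Krba1* (0.17), *Gata6* (0.29) to *D3Ertd254e* (0.06) and *Snapc2* (0.07), and *Wt1* (0.31) to *Capza1* (0.12) and *Ccdc174* (0.12). *Amh* had the least close matches, *Cdca7l* (0.26) and *Nos2* (0.29), beside a spread of 0.68. For *Nr5a1*, with a spread of 0.16, they were *Cdkn2aipnl* (0.05) and *Kif20b* (0.06). The ranking describes these libraries only.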

How the data were processed

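The deposited tables give FPKM per transcript row for each of 9 libraries of mouse granulosa cells, and the authors made these FPKM values before deposit. The submitters' processing notes name HISAT2 2.0.5 and mm10. How FPKM was computed, and on which annotation, is not given in the sources used here. Illumina TruSeq libraries were made from Trizol-extracted RNA, per the labels' protocols. Each table holds 54759 rows and 25059 gene identifiers, of which 11778 have more than 1 row. Between 9364 and 9682 rows per library lay above 0 and below 0.001, so reads could not be recovered and no counting interval is given.

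Rows were summed per gene identifier in Python 3.11.15. Log2(FPKM + 1) was tested with limma 3.58.1 (R 4.3.3, prior variance as a trend of mean level) for 14535 genes that reached 1 FPKM in 3 libraries. The 9 libraries shared 1 fit with a mean per time, no covariate and 6 residual degrees of freedom. The FPKM branch of the planned tests was used. Ratios within a library were tested by exact permutation over 1680 arrangements. The fits and the permutation test were checked on simulated data. The alternatives were another pseudocount (0.1), no filter, 2 scalings, the most abundant row, the compared times alone, no variance trend, a replicate block and leaving out each library. Coordinates are from GENCODE M21 (mm10), and promoter windows and motifs from RefSeq (GRCm38.p6), 250 bases before to 50 after a start.

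The members and gene lists were chosen with earlier results of these data known. Named genes are the 9 members, in each comparison the called genes of every other list that changed most (4 at most), opposite-strand or neighbouring partners, the defining markers *Cyp17a1*, *Zp3*, *Upk3b*, *Pecam1*, *Ptprc* and *Fshr*, and the 2 genes nearest in profile to each member. Clone-type symbols such as those of Gm and Rik form could not be nearest genes, while other provisional symbols (*D3Ertd254e*) could. Named outside this rule, after their values were seen, were the partners found by overlap in the annotation, paralogs without a call, *Acvr1*, *Bmpr1a*, *Id2*, *Sox9*, *Sry* and *Dmrt1*. The marker lists and the testis-side list served as descriptions.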

Additional observations from a re-analysis of the deposited data

How the results depend on the processing

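Of 459 values of single genes under the 17 alternatives, 394 kept their direction and their side of the threshold, 41 lost a call, 11 gained 1 and 13 turned sign, and none of these 13 was called. They were *Amh* at 1 h against 0 h with FPKM scaled to the mean sum (−0.0012), under quantile normalization (−0.043) and without 1 h replicate 2 (−0.13; range −0.13 to 0.46 without 1 library), and *Amhr2* there under the same scalings (−0.082 and −0.11). *Gata6* at 6 h against 0 h changed sign when 0 h replicate 1 or either of 6 h replicates 1 and 3 was left out (range −0.048 to 0.046 without 1 library). *Nr5a1* at 6 h against 1 h turned with FPKM scaled to the mean sum (0.064), under quantile normalization (0.049) and without 1 h replicate 1 or 3 or 6 h replicate 1 (range −0.090 to 0.075). The count of genes called higher at 1 h against 0 h was 1 in place of 2 with no filter, both scalings, the most abundant row, the compared times alone and no variance trend, and 1 to 2 without 1 library, with *Gata4* the gene lost. The count called lower there was 1 in place of 3 with no filter, and 1 to 3 without 1 library. With both scalings that count was 4, *Nr5a1* being the gene gained. At 6 h against 1 h, genes called higher were 2 in place of 1 with FPKM scaled to the mean sum and for the compared times alone, and 1 to 2 without 1 library, *Wt1* being the gene gained. The permutation p of *Nr5a1* over *Nr5a2* was 0.00357 without each library, that of *Gata4* over *Gata6* 0.00357 to 0.00714, and that of *Amh* over *Amhr2* 0.0786 to 0.729. The cause of these shifts was not tested. Same-numbered libraries correlated in their deviations from the group means by −0.0783 to 0.147, and differently numbered ones by −0.151 to 0.0861. The highest value was thus between same-numbered libraries. Among these, only replicate 2 at 1 h and 6 h lay below 0 (−0.0783), while differently numbered pairs lay on both sides of 0. The numbers were not taken as pairs in the main fit, and these values do not settle whether they are. With the replicate block, 5 of the 9 genes were called lower at 6 h against 0 h, as without it, and the permutation p of both paralog ratios was 0.0278, the smallest that fit allows. Depth is unknown, and 3 libraries per time limit the precision.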

Other observations

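Factors on the testis side of sex determination were read as a list of 11, of which 6 passed the filter. The list also held the repressor gene *Nr0b1* described above, which was called lower at 6 h against 0 h. At 1 h against 0 h 1 was higher and 0 lower (median log2 change 0.19, with 1 lower at an unadjusted p below 0.05 by limma), at 6 h 0 were higher and 2 lower (−0.30), and against 1 h 0 were higher and 3 lower (−0.47). *Fgfr2*, the receptor gene for FGF9, averaged 38.0 ± 4.94 FPKM at 1 h and 24.6 ± 4.27 at 0 h (0.62 ± 0.13, limma adjusted p = 0.0114). *Dhh*, a hedgehog ligand gene that granulosa cells also use to signal to theca cells, averaged 5.22 ± 1.36 FPKM at 6 h and 23.5 ± 2.35 at 0 h (−2.0 ± 0.15, adjusted p = 4.09e-06). *Cyp26b1*, a retinoic acid-degrading enzyme gene, averaged 1.19 ± 0.237 FPKM at 6 h and 2.46 ± 0.365 at 1 h (−0.66 ± 0.15, adjusted p = 0.00429). *Sox9*, the central testis factor, did not pass the filter and was not tested. In FPKM, the 0 h libraries read 0.444, 0.378 and 0.322, those of 1 h 0.936, 2.85 and 6.25, and those of 6 h 0.583, 0.976 and 0.616, so that replicates 2 and 3 at 1 h stood above the rest. *Sry* was listed at 0 in all libraries, and *Dmrt1* stayed below 0.1 FPKM.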
